A study of Drosophila melanogaster with 144 samples.

Results

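The cytosolic ribosomal protein genes of the fly head were followed here across 2 lines, 2 sexes and 12 circadian times. A gene was included when its row in the deposited count table mapped to a FlyBase symbol that starts with RpL or RpS and a digit, or to RpLP0, RpLP1, RpLP2 or sta. The rule chose 88 of the 17381 genes, 50 of the large subunit and 38 of the small one. A further 4 annotated symbols of this kind were not analysed here. The lines were DGRP_892, an inbred line with a long circadian period, and Canton-S B, with a period of 24 h, which the growth protocol names w1118; Canton-S B. Within each line, heads of virgin adult males were set against heads of virgin adult females. Every fly had been entrained to light and dark for 3 days and then held in constant darkness for 3 days. Samples were taken every 2 h from circadian time (CT) 2 to CT 24, in 3 repeats of the whole procedure, with 150 heads pooled per library. This gave 144 libraries, 36 for each line and sex. Each line stands for 1 genotype, and flies had been entrained in 2 incubators with opposite light cycles, of which the labels do not give the one used for a sample.

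Ribosomal proteins join ribosomal RNA in the nucleolus to form the small subunit, which reads the mRNA, and the large subunit, which joins amino acids. In Drosophila most of them are encoded by a single gene, and loss of a single copy of many of these genes gives the Minute phenotype of slow development and short, thin bristles. A few exist as pairs of related copies, and some of the second copies are known from the ovary and testis rather than from body tissue. Their mRNAs make up a large part of the mRNA of most cells, and their translation is under control of the Tor pathway.

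The libraries held 11.7 M to 37.3 M reads counted to genes, with a median of 15.2 M. The 48 libraries with library numbers in runs 1 and 4, of 6 runs of 24 consecutive numbers, held 25.5 M to 37.3 M, and the other 96 held fewer, down to 11.7 M. The labelled tissue was checked with 10 photoreceptor genes, which summed to 58700 to 113900 CPM (counts-per-million values, with library sizes scaled by the trimmed mean of M-values) over the 144 libraries. No 2 libraries held identical counts. Libraries that stood apart were 2 male libraries with testis gene counts, 1 female library with ovary gene counts, and 10 male libraries with over 2000 CPM of yolk genes. The sex difference is given with and without them, and the line difference of RpS5b with and without the libraries with gonad gene counts. For the interaction of line and sex and for the daily course in DGRP_892, counts without the yolk gene libraries are given at the end, with the other alternatives.

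Of the 88 genes, 80 passed the filter on low counts (46 large-subunit and 34 small-subunit genes), and 78 of these averaged 100 CPM or more. Per kilobase of exon, the median level was 823 CPM per kb. RpL41, which encodes a very short basic peptide of the large subunit, was highest with 2561 CPM per kb. RpLP1, an acidic protein of the stalk that recruits the elongation factors, followed with 1803, RpS27A, in which a small-subunit protein is made as a fusion with ubiquitin, with 1779, RpL7A with 1775 and RpS15 with 1715. The lowest of the tested genes were RpS5b with 0.304, RpS15Ab with 29.5 and RpS21 with 159 CPM per kb. RpS5b stood alone at this low level among the tested genes, and RpS15Ab was the next.

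Male heads held less ribosomal protein mRNA than female heads in both lines. The 88 genes together took 4.56% ± 0.74 of the gene counts in DGRP_892 males and 6.70% ± 1.06 in DGRP_892 females, and 5.08% ± 0.84 in Canton-S B males and 7.26% ± 1.03 in Canton-S B females (SD, n = 36 each). Gene by gene, 79 of the 80 tested genes were lower in males at an adjusted p under 0.05 and none was higher, all 80 log2 fold changes being negative (edgeR's quasi-likelihood test, Benjamini-Hochberg adjustment over 10894 genes), where 29.7% of all genes tested were lower, 35.9% higher and 65.6% either. The median log2 fold change, male over female, was -0.70, against 0.03 for all genes tested, and 67 of the 80 were at least 1.5-fold lower in males. In these pools of whole heads, fewer cells of a type and less RNA per cell cannot be told apart.

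The 46 large-subunit genes had a median of -0.69 and the 34 small-subunit genes one of -0.71; the difference between the subunits was not tested. The median was -0.74 for the 13 tested genes on the X chromosome and -0.70 for the 67 others. All genes tested had medians of -0.01 on X, 0.03 on 2L, 0.02 on 2R, 0.04 on 3L and 3R and 0.13 on chromosome 4. The difference between X and the other chromosomes was not tested. Within DGRP_892, 77 genes were lower in males and 0 higher (of all genes tested, 25.5% were lower, 31.4% higher and 56.9% either). Within Canton-S B, 78 were lower and 0 higher (25.8% lower, 28.8% higher and 54.6% either). Those missed were RpS5b in each line, RpL38 and RpS15Ab in DGRP_892 and RpL24-like in Canton-S B, all with negative log2 fold changes. The difference had the same sign in all 24 pairs of line and time means for 61 genes and in at least 18 pairs for each of the 79 called.

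**Figure D1:**
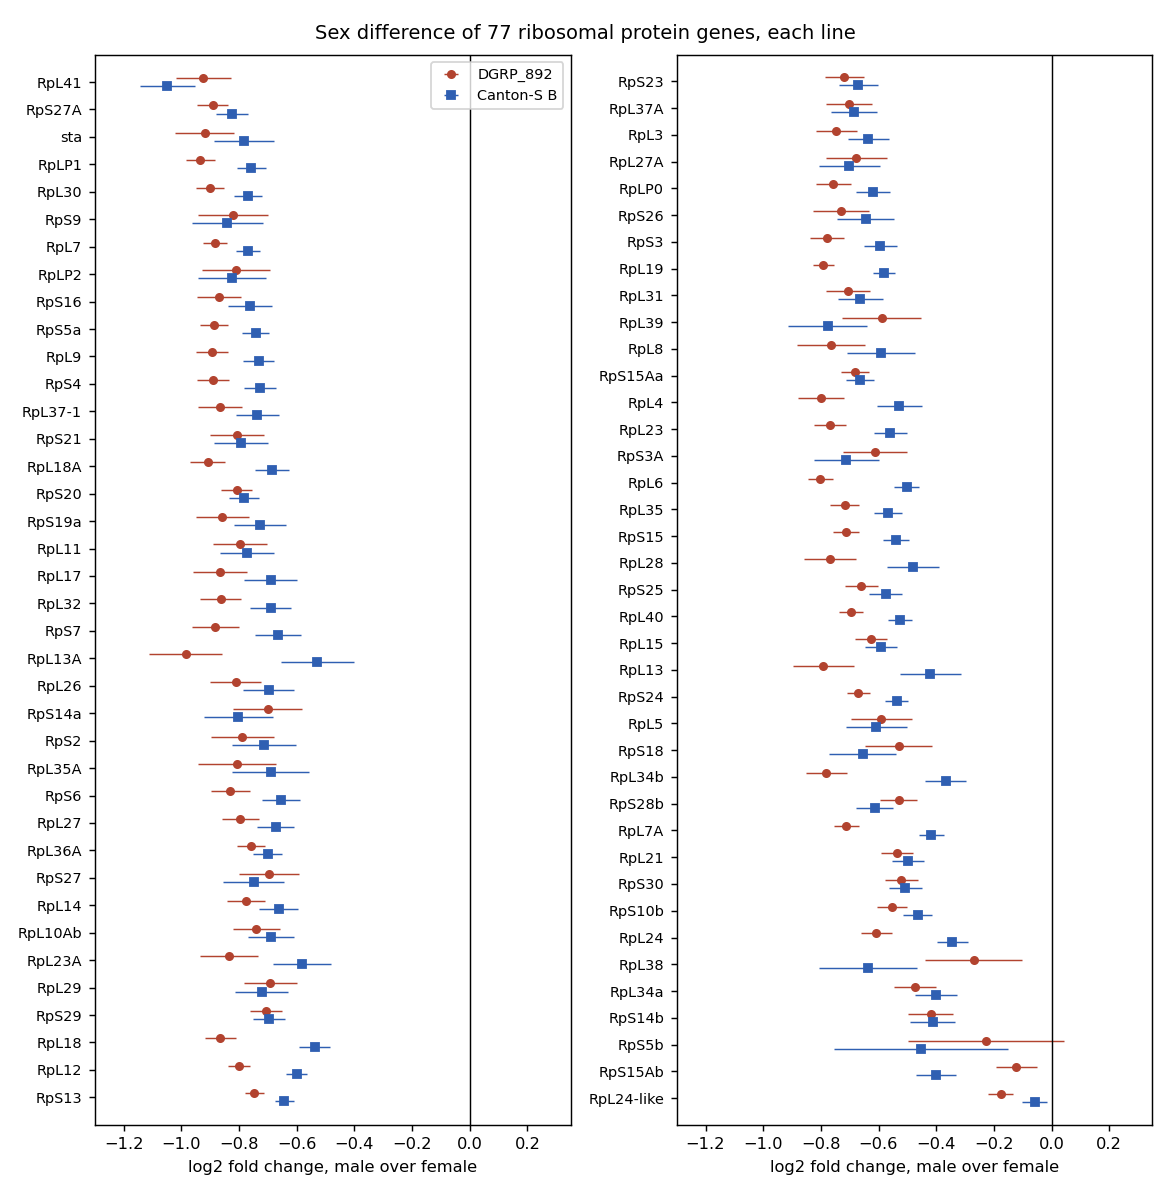
Sex difference of 77 of the 80 tested ribosomal protein genes, as the log2 fold change of male over female heads with its standard error, in DGRP_892 (circles, upper mark of each row) and Canton-S B (squares), ordered by the mean over both lines. Over both lines 72 of all 80 genes lie between -0.9 and -0.5, and those nearest to 0 are RpL24-like, RpS15Ab, RpS5b and RpS14b; scaling to the ERCC spike-in totals turns RpL24-like to 0.09.

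The 6 largest differences were those of RpL41, RpS27A, sta, RpLP1, RpL30 and RpS9. RpL41 ranged from 365.0 to 1065 CPM with a median of 456 in DGRP_892 males, against 716 to 1987 with a median of 904 in DGRP_892 females. In Canton-S B it ranged from 379 to 971 with a median of 444 in males and from 693 to 1900.0 with a median of 987 in females. Both male medians lay below the lowest female library of the line, and the ranges overlapped. Its log2 fold change over both lines was -0.99 ± 0.07 (SE, adjusted p = 2.2e-25, edgeR).

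RpS27A, the ubiquitin fusion, had 589 to 1197 CPM in DGRP_892 males, with a median of 681, and 895 to 2125 in DGRP_892 females, with a median of 1256. In Canton-S B the male range was 601 to 1067 around a median of 715, and the female range 1028 to 2032 around 1306. The log2 fold change was -0.86 ± 0.04 (adjusted p = 2.4e-38, edgeR), and the highest males reached into the lower part of the female range. RpL40, the large-subunit protein that is also made as a ubiquitin fusion, was lower in males by a smaller amount, with a log2 fold change of -0.61 ± 0.03 (adjusted p = 1.9e-37, edgeR); it was added here after its values were seen.

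Of the stalk proteins, RpLP1 had a median of 991 CPM in DGRP_892 males (732 to 1233) and of 1912 in DGRP_892 females (1028 to 2322). In Canton-S B the medians were 1005 in males (747 to 1406) and 1663 in females (1276 to 2326), and the log2 fold change over both lines was -0.85 ± 0.04. RpLP2, its partner on the stalk, had a log2 fold change of -0.82 ± 0.08. RpLP1 and RpLP2 stood among the larger differences of the 80 genes. RpLP0, also of the stalk and added after its values were seen, had -0.69 ± 0.04, near the median of -0.70.

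The small-subunit gene sta, known as stubarista and related to the human laminin receptor precursor, varied more between libraries. Its medians were 388 CPM in DGRP_892 males (232 to 1337) and 763 in DGRP_892 females (465 to 1332), and 435 in Canton-S B males (319 to 1474) and 830 in Canton-S B females (482 to 1660). The highest DGRP_892 male library lay above all DGRP_892 female libraries, and the log2 fold change was -0.85 ± 0.07 (adjusted p = 2.3e-19, edgeR). RpL30, of the large subunit, was tighter: its medians were 315 and 362 CPM in DGRP_892 and Canton-S B males, against 584 and 618 CPM in DGRP_892 and Canton-S B females, and its fold change was -0.84 ± 0.03 on the log2 scale.

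RpS9, of the small subunit, varied widely between libraries, with 123.03 to 719 CPM in DGRP_892 males and 205 to 1236 in DGRP_892 females. In Canton-S B it had 173 to 720 in males and 286 to 1357 in females. Its log2 fold change was -0.83 ± 0.09 (adjusted p = 5.6e-15, edgeR). It shares 512 exon bases with the antisense gene asRNA:CR45874, and RpL30 shares 202 with CG31793 on the opposite strand. No source used here states whether reads were counted by strand, so counts of these 2 genes may hold reads of the overlapping gene.

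At the other end stood second copies of paralogue pairs. RpL24-like, the fly relative of the yeast large-subunit assembly factor Rlp24, had medians of 107.4 CPM in DGRP_892 males and 119.45 in DGRP_892 females, and of 122.8 in Canton-S B males and 133.05 in Canton-S B females. Its log2 fold change was -0.12 ± 0.03 (adjusted p = 5.2e-04, edgeR), and it turned to 0.09 (adjusted p = 0.425) when libraries were scaled by their ERCC spike-in totals. RpS15Ab followed with -0.26 ± 0.05, RpS5b with -0.34 ± 0.20 and RpS14b with -0.42 ± 0.06. RpS5b was the gene that did not pass the threshold (adjusted p = 0.130).

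The sexes overlapped in nearly every gene. In DGRP_892 the highest male library lay below the lowest female library for 2 genes, RpL12 and RpS13. In Canton-S B it did for 3, RpL7, RpS13 and RpS20. These names were chosen after their values were seen. The same count over all genes tested was not made, so these counts cannot be called few or many. RpS13, of the small subunit, had 699 to 1010.0 CPM in DGRP_892 males and 1177 to 1694 in DGRP_892 females, and 704 to 1022 in Canton-S B males and 1089 to 1615 in Canton-S B females. No male library reached the lowest female library of its line. RpS13 also had the smallest spread between replicates of the tested genes, with an SD of 0.14 on the log2 scale.

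Replicates of a group differed more for these genes than for most others. The SD between replicates, on the log2 scale, had a median of 0.30 (0.14 to 0.73, the highest in RpL38), against 0.22 for all genes tested. Runs of 24 library numbers accounted for a median of 34.4% of this replicate variance, against 22.5% for all genes tested. The genes moved together: over the 144 libraries the median Pearson r between 2 tested genes was 0.775, and it was 0.547 after group means were subtracted. These values are descriptions, since all genes share the libraries and their depth. RpL13A, RpL7A, RpS5b, RpL28, RpL12 and RpS29 followed the mean of the others least within groups, with r between 0.104 and 0.294.

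The sex difference was present within each of the 6 runs of library numbers, with medians of -0.79 to -0.59 on the log2 scale and 79 or 80 of the 80 genes lower in males. When libraries were scaled by the totals of ERCC spike-in RNA, which had been added per amount of total RNA, the difference kept its direction but became smaller. That scaling moved the median of all genes tested to 0.23, and the median of the ribosomal protein genes was then -0.51, with 77 genes lower in males. Spike-in transcripts took 0.399% ± 0.187 of the male counts and 0.403% ± 0.183 of the female counts (SD, n = 72 each). Without the 10 male libraries with over 2000 CPM of yolk genes, 79 genes were lower in males with a median of -0.68, and without the 3 libraries with the most gonad marker counts 79 were lower with a median of -0.71. For spike-in scaling and these fits, calls among all genes tested are not given, so the counts have no background to be set against. The 10 libraries had 3.14% to 5.39% of their counts in ribosomal protein genes, and the other 62 male libraries 3.51% to 7.92%.

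Markers of several cell types differed between the sexes at the same time. Of 12 haemocyte markers, 12 were lower in males with a median log2 fold change of -0.70, and their summed level ran from 1051 to 1846 CPM in males and from 1409 to 2867 in females; NimC1, a phagocytosis receptor, had -0.86 ± 0.04. Of 12 fat body markers tested, 5 were higher and 7 lower in males, with sums of 4628 to 20740 CPM in males and 6276 to 31640 in females. The 3 yolk protein genes were lower in males and summed to 59.5 to 7309 CPM in males and 25900 to 145500 CPM in females. Neuronal markers went the other way, with 13 of 14 higher in males, summing to 5968 to 12230 CPM in males and 4253 to 10720 in females, and 6 of 10 glial markers (2604 to 4308 CPM in males, 2487 to 3676 in females) and 8 of 10 photoreceptor markers (62220 to 113900 in males, 58700 to 113100 in females) were higher in males, with 1 photoreceptor marker lower. Of the gonad lists, 3 of 9 tested ovary markers were higher and 2 lower in males (sums of 7.20 to 17.8 CPM in males and 6.68 to 27.4 in females), and 2 of 7 tested testis markers were higher (7.03 to 185 CPM in males and 5.84 to 23.6 in females). None of these markers was at 0 in every library. The part of these cell types in the sex difference of the ribosomal protein genes was not tested.

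Other genes of translation and ribosome assembly were lower in males as well. The ribosome assembly list had 22 of 22 tested genes lower, with a median of -0.50; nop5, a core protein of the snoRNA particles that methylate ribosomal RNA, averaged 19.6 ± 2.59 CPM over the 72 male and 49.4 ± 8.30 over the 72 female libraries (± SD). All 8 tested genes of the RNA polymerase I list were lower, also with a median of -0.50. Of 7 elongation factor genes, 6 were lower and 1 higher; eEF1alpha1, which delivers aminoacyl-tRNA, had 4742 ± 416 CPM in males and 8810 ± 1190 in females, a log2 fold change of -0.89 ± 0.02. Of 28 initiation factor genes, 23 were lower and 2 higher, with a median of -0.28. All 5 ribosome-associated genes were lower, among them Rack1, a scaffold on the small subunit, with -0.76 ± 0.04.

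Regulators of growth were less uniform, with 5 of 20 lower and 2 higher in males and a median of 0.00034. Myc, the transcription factor that drives ribosome production in flies, averaged 40.2 ± 12.9 CPM in males and 84.6 ± 31.6 in females (log2 fold change -1.04 ± 0.08). Thor, the 4E-BP translation repressor, had a log2 fold change of -0.62 ± 0.05. The mitochondrial ribosomal protein genes, which build the separate ribosome of the mitochondrion, had 45 of 71 lower and 3 higher in males, and their median log2 fold change was -0.10. Their summed level was 959.5 to 1391 CPM in males and 1061 to 1451 in females. All of these log2 fold changes of single genes passed the threshold (edgeR, adjusted over 10894 genes).

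Between the lines, most ribosomal protein genes did not pass the threshold. Of the 80, 5 were higher in DGRP_892 and 14 lower (edgeR, adjusted p under 0.05), where 30.9% of all genes tested were higher and 36.4% lower. The 19 called are 23.8% of the tested members, against 67.3% of all genes tested. The median log2 fold change, DGRP_892 over Canton-S B, was -0.01, against -0.02 for all genes tested, and 78 of the 80 lay within 0.25 of 0. The summed level of the DGRP_892 libraries was 32380 to 103700 CPM, and that of the Canton-S B libraries 35390 to 94960.

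**Figure D2:**
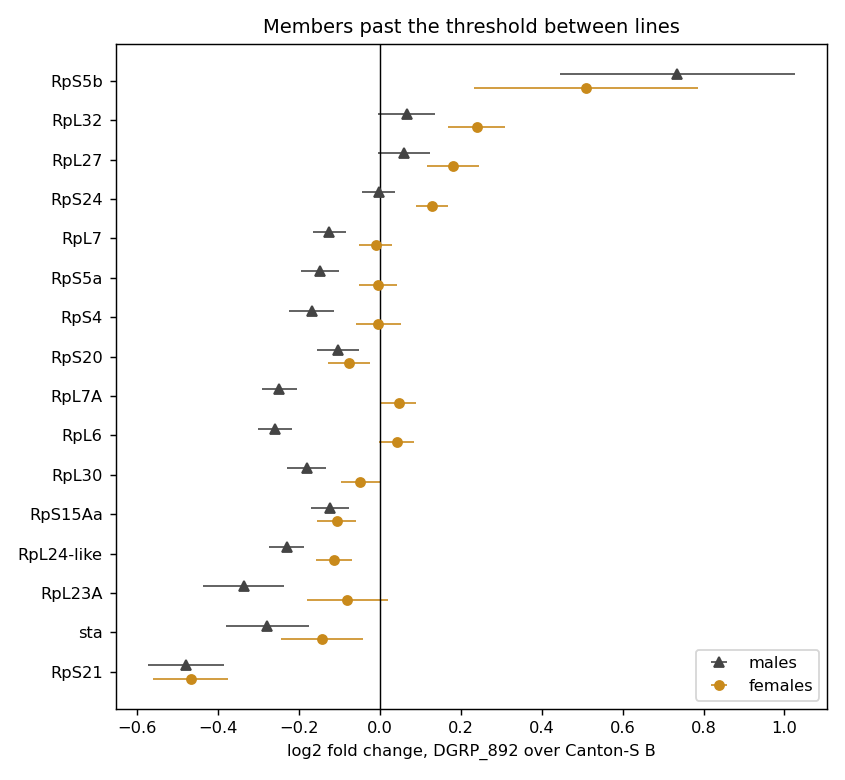
Line difference of 16 of the 19 ribosomal protein genes past the threshold over both sexes, as the log2 fold change of DGRP_892 over Canton-S B with its standard error, in males (triangles, upper mark of each row) and females (circles). RpS21 lies near -0.5 in both sexes, several large-subunit genes such as RpL6 and RpL7A are below 0 in males and near 0 in females, and RpS5b at the top rests on low counts.

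RpS21, a small-subunit protein that binds the stubarista protein, had the largest difference among the abundant genes. It had 39.2 to 150.5 CPM in DGRP_892 males (median 73.3) and 76.9 to 222 in Canton-S B males (median 101.8). In females it had 73.3 to 290 CPM in DGRP_892 (median 132.75) and 116.7 to 362 in Canton-S B (median 185). It was lower in DGRP_892 in 22 of 24 pairs of sex and time, with overlapping ranges. The log2 fold change was -0.47 ± 0.07 (adjusted p = 4.4e-10, edgeR), and it was past the threshold under each of the 15 alternatives.

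Other genes lower in DGRP_892 were sta (-0.21), RpL23A (-0.21), RpL24-like (-0.17), RpS15Aa (-0.12), RpL30 (-0.12), RpL6 (-0.11), RpL7A (-0.10), RpS20 (-0.09), RpS4 (-0.09), RpS5a (-0.08) and RpL7 (-0.07). The smallest of these calls were often lost: of 15 alternatives, RpS4 passed in 4, RpS5a in 6, and RpS20 and RpL7 in 7 each. In females alone the adjusted p was 0.967 for RpS4, 0.962 for RpS5a, 0.856 for RpL7 and 0.202 for RpS20 (edgeR).

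Among those higher in DGRP_892 were RpL32 (0.15 ± 0.05), RpL27 (0.12 ± 0.05), RpS24 (0.06 ± 0.03, past the threshold in 8 of 15 alternatives) and RpS5b (0.62 ± 0.20). RpL32, a large-subunit gene that is widely used as a reference transcript in fly expression work, had 473 to 1049 CPM in DGRP_892 males (median 723) and 477 to 1073 in Canton-S B males (median 698). The median of DGRP_892 females was 1297 CPM and that of Canton-S B females 1042. Between the sexes it differed more than between the lines, with a log2 fold change, male over female, of -0.78 ± 0.05.

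RpS5b, known as a germline copy of RpS5a, had medians of 0.29 CPM in DGRP_892 males and 0.13 in Canton-S B males, and of 0.31 in DGRP_892 females and 0.15 in Canton-S B females. Its highest library was a Canton-S B female one at CT 16 (replicate 3), with 2.67 CPM and 79 of the 826 reads of this gene. This library also had the highest sum of ovary markers, 27.4 CPM against a median of 11.5, and the next library had 23.7. Without the 3 libraries with the most gonad marker counts, the log2 fold change of RpS5b was 0.75, past the threshold as well. The call was lost without replicate 2 (0.32, adjusted p = 0.346), without library run 6 (0.34, adjusted p = 0.219) and in the deeper libraries alone (0.30, adjusted p = 0.673).

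The line differences of the abundant genes depended on which libraries entered. Calls among all genes tested are not given for these alternatives, so this cannot be called particular to ribosomal protein genes. The deeper libraries gave 8 genes higher and 2 lower in DGRP_892, and the shallower ones 3 higher and 22 lower. Without replicate 1 there were 7 higher and 5 lower, and without replicate 2 there were 14 higher and 11 lower. Within the 6 runs of library numbers, the median line difference of the 80 genes ran from -0.25 to 0.10 on the log2 scale, and 13 to 66 genes were lower in DGRP_892. Scaling by spike-in totals left 3 genes past the threshold, 1 higher and 2 lower, where spike-in transcripts took 0.391% ± 0.186 of the DGRP_892 counts and 0.411% ± 0.184 of the Canton-S B counts (SD, n = 72 each). RpL23A shares 421 exon bases with Uhg7 on its own strand, so reads of these genes may be mixed.

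Marker genes also differed between the lines, with 9 of 12 haemocyte markers lower and 1 higher in DGRP_892 (sums of 1051 to 2165 CPM in DGRP_892 and 1207 to 2867 in Canton-S B) and 10 of 12 fat body markers higher and 1 lower (9175 to 31640 CPM in DGRP_892 and 4628 to 14230 in Canton-S B). Of the photoreceptor markers, 6 of 10 were higher and 3 lower in DGRP_892, of the neuronal markers 1 of 14 was higher and 7 lower, and of the glial markers 1 of 10 was higher and 6 lower. Of the mitochondrial ribosomal protein genes, 25 of 71 were higher and 13 lower in DGRP_892. The part of these cell types in the line differences was not tested. Of the other translation lists, elongation factors had 5 of 7 higher and 1 lower, initiation factors 8 of 28 higher and 9 lower, ribosome assembly genes 11 of 22 higher and 2 lower, RNA polymerase I genes 1 of 8 higher, growth regulators 4 of 20 higher and 2 lower, and ribosome-associated genes 1 of 5 higher and 1 lower.

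The interaction of line and sex was past the threshold for 10 of 80 genes, or 12.5%, close to the 12.7% of all genes tested. The sex difference was larger in DGRP_892 than in Canton-S B for 9 of them, a negative interaction. These are 11.2% of the tested members, against 6.43% of all genes tested. It was smaller for 1 gene (6.24% of all genes tested). Of the 9, 8 were of the large subunit, which holds 46 of the 80 tested genes. A difference between the subunits was not tested. The median sex difference of the 80 genes was -0.77 in DGRP_892 and -0.66 in Canton-S B. The 6 genes with the smallest adjusted p were RpL6, RpL7A, RpL18, RpL34b, RpL19 and RpL12, all of the large subunit.

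RpL6 had 807 to 1395 CPM in DGRP_892 males (median 1019) and 1216 to 2114 in DGRP_892 females (median 1850.0). In Canton-S B it had 909 to 1511 in males (median 1263) and 1288 to 2367 in females (median 1751). By median, the DGRP_892 males were the lowest group and the DGRP_892 females the highest, with overlapping ranges. The sex difference was -0.80 ± 0.04 in DGRP_892 and -0.50 ± 0.04 in Canton-S B, a difference of -0.30 ± 0.06 (adjusted p = 1.2e-04, edgeR).

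RpL7A, of the large subunit, showed the same order of groups, with medians of 1741 CPM in DGRP_892 males and 2898 in DGRP_892 females, and of 2074 in Canton-S B males and 2571 in Canton-S B females. RpL34b had the widest gap between the lines of these 6 genes, with a sex difference of -0.78 ± 0.07 in DGRP_892 and -0.37 ± 0.07 in Canton-S B (difference -0.41 ± 0.10, adjusted p = 0.0018, edgeR). RpL12, a protein at the base of the stalk, had -0.80 ± 0.04 in DGRP_892 and -0.60 ± 0.04 in Canton-S B. RpS15Ab went the other way, with -0.12 ± 0.07 in DGRP_892 and -0.40 ± 0.07 in Canton-S B (difference 0.28 ± 0.10, adjusted p = 0.049, edgeR).

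Set against each other within a sex, DGRP_892 over Canton-S B gave 3 genes higher and 19 lower in males alone, where 26.1% of all genes tested were higher, 29.3% lower and 55.4% either. In females alone it gave 12 higher and 3 lower, where 27.7% of all genes tested were higher, 32.5% lower and 60.2% either. RpL18, RpL19 and RpL34b were lower in DGRP_892 in males and higher in females. The number of interaction calls moved with the processing. In the authors' batch-corrected values 35 genes passed (limma-trend), and 32 did with library runs as a covariate. In the deeper libraries alone 0 genes passed (edgeR, 4 at an unadjusted p under 0.05), and 0 under spike-in scaling (1 at an unadjusted p under 0.05). There were 6 without replicate 3, 6 in the shallower libraries alone and 4 without library run 6. Calls among all genes tested are not given for these alternatives.

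Among the paralogue pairs, 4 second copies were abundant: RpS14b, RpL34a, RpL24-like and RpS15Ab. RpS14a and RpS14b lie next to each other on the X chromosome, at 7933742 to 7934677 and 7934898 to 7935792 on the forward strand (release 6 assembly). The pair is known to encode the same protein, so reads may have been split between the copies, and no source used here states how reads shared by copies were counted. RpS14b took 35.9% ± 5.95 of the counts of the pair in DGRP_892 males and 31.4% ± 5.26 in DGRP_892 females, and 35.5% ± 5.78 in Canton-S B males and 29.4% ± 5.33 in Canton-S B females (SD, n = 36 each).

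The sex difference was -0.75 ± 0.08 for RpS14a and -0.42 ± 0.06 for RpS14b on the log2 scale. The single-exon copy RpS15Ab, on 2R, took 3.44% ± 0.50 of the counts of its pair in DGRP_892 males and 2.36% ± 0.35 in DGRP_892 females, and 2.81% ± 0.40 in Canton-S B males and 2.36% ± 0.39 in Canton-S B females. The X-linked RpS15Aa, with 598 and 613 CPM as medians in DGRP_892 and Canton-S B males and 865 and 997 in DGRP_892 and Canton-S B females, had a sex difference of -0.67 ± 0.03, against -0.26 ± 0.05 for RpS15Ab.

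RpL24-like took 20.9% ± 2.26 of the counts of RpL24 and RpL24-like in DGRP_892 males and 16.4% ± 2.11 in DGRP_892 females, and 21.5% ± 2.65 in Canton-S B males and 18.3% ± 2.31 in Canton-S B females. RpL24, a protein of the mature large subunit, had a sex difference of -0.48 ± 0.04. RpL34a took 22.3% ± 5.40 of its pair in DGRP_892 males and 19.01% ± 4.64 in DGRP_892 females, and 21.4% ± 5.53 in Canton-S B males and 21.6% ± 4.91 in Canton-S B females, with sex differences of -0.57 ± 0.05 for RpL34b and -0.44 ± 0.05 for RpL34a. Pooled over the lines, the second copy of each of the 4 pairs had the smaller sex difference, but within Canton-S B RpL34a had the larger one, with -0.40 ± 0.07, against -0.37 ± 0.07 for RpL34b. The difference between the copies was not tested.

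**Figure D3:**
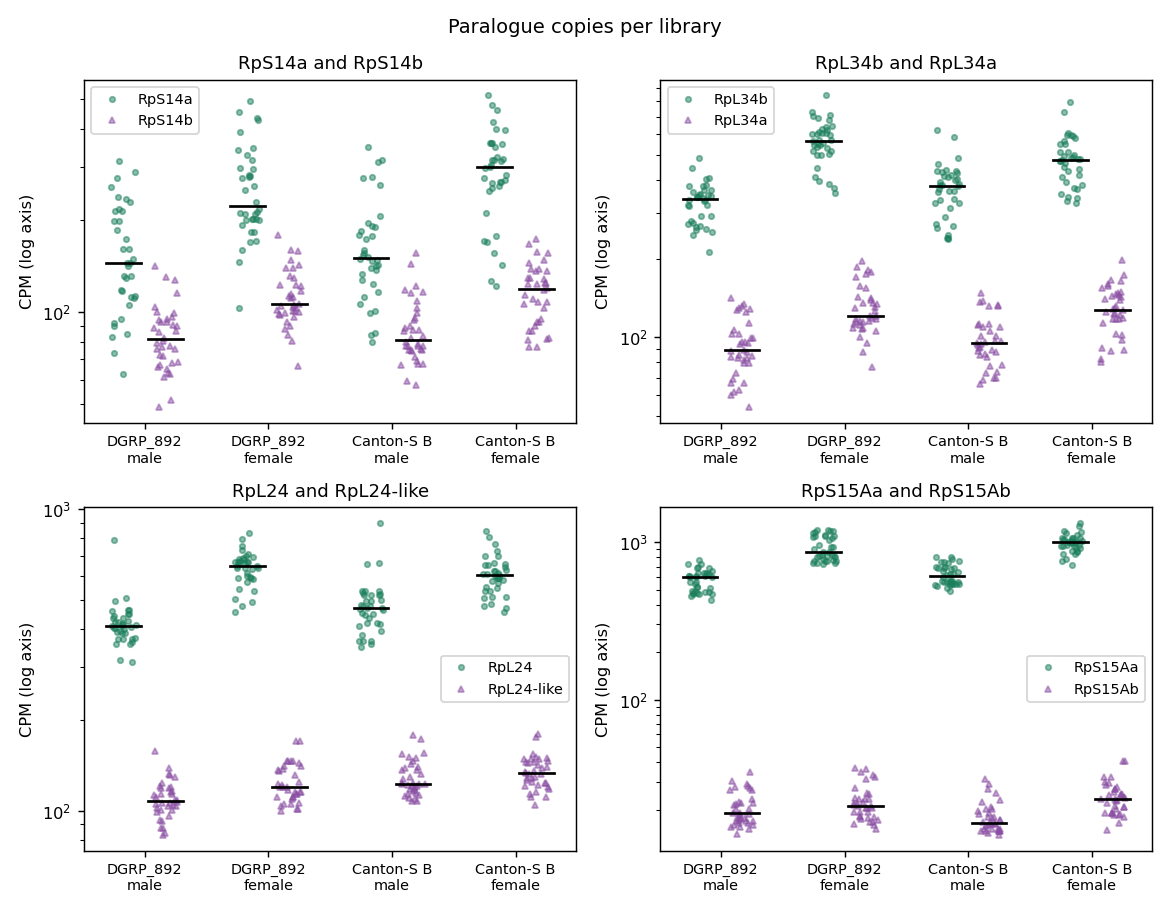
Levels of the copies of 4 paralogue pairs in each library (CPM on a log axis, points with the median as a bar) for males and females of DGRP_892 and Canton-S B, circles for the main copy and triangles for the second one. The main copies are lower in male than in female heads of both lines, and the second copies differ less between the sexes except in the RpL34 pair of Canton-S B (-0.40 for RpL34a and -0.37 for RpL34b); the smallest difference is that of RpL24-like, which turns to slightly higher in males (0.09 on the log2 scale) under spike-in scaling.

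The other second copies were close to absent from heads. RpS5b took 0.033% of the pooled counts of RpS5a and RpS5b, RpS10a 0.028% of its pair with RpS10b, RpS19b 0.016% with RpS19a, RpL37-2 0.018% with RpL37-1 and RpL10Aa 0.0045% with RpL10Ab. The main copy that pairs with RpL22-like was not analysed here. RpS28-like and RpS28a, set beside RpS28b, held 71 and 5 reads in all, against 1949892 for RpS28b. RpL7-like held 20 reads, and 1771 of its 1793 exon bases are shared with CG34164 on the same strand, so the 2 genes cannot be told apart there. The main copies were among the ordinary members, with sex differences of -0.81 ± 0.03 for RpS5a, -0.51 ± 0.04 for RpS10b, -0.79 ± 0.06 for RpS19a, -0.57 ± 0.05 for RpS28b, -0.71 ± 0.06 for RpL10Ab, -0.80 ± 0.05 for RpL37-1 and -0.83 ± 0.03 for RpL7.

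The 8 genes below the filter were RpL10Aa, RpL22-like, RpL37-2, RpL7-like, RpS10a, RpS19b, RpS28-like and RpS28a, and they had 5 to 490 reads each over the 144 libraries. RpL10Aa had 43 reads in DGRP_892 males and none in DGRP_892 females, and 79 in Canton-S B males and none in Canton-S B females. A single DGRP_892 male library at CT 22 (replicate 2) held 39 of them and a Canton-S B male library at CT 22 (replicate 1) held 70. These 2 libraries had the highest sums of 16 testis markers, 113.9 CPM in the DGRP_892 library and 185 CPM in the Canton-S B library, and the next library had 38.4.

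RpL22-like, known from the germline and in particular the testis, had 39 of its reads in the same DGRP_892 library and 32 in the same Canton-S B library, together 51.1%. RpS19b had 33 of its 227 reads in the DGRP_892 library and 26 in the Canton-S B library. RpS28-like had 32.4% of its reads in these 2 libraries, RpL37-2 8.85% and RpS10a 7.35%. RpS10a was spread more evenly, with a read in 32 of 36 DGRP_892 male, 31 of 36 DGRP_892 female, 34 of 36 Canton-S B male and 30 of 36 Canton-S B female libraries and medians of 0.18 CPM in DGRP_892 males and 0.14 in DGRP_892 females. RpL37-2 was low in DGRP_892, with 19 reads in males and 9 in females, against 194 in males and 151 in females of Canton-S B, where 35 of 36 male and 33 of 36 female libraries held at least 1 read, and it was lower in DGRP_892 in all 24 pairs of sex and time. Depth was similar, with 712 M gene counts in DGRP_892 males, 699 M in DGRP_892 females, 699.6 M in Canton-S B males and 776 M in Canton-S B females. No test was run on the genes below the filter, and these counts carry counting error as well as the spread between libraries.

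**Figure D4:**
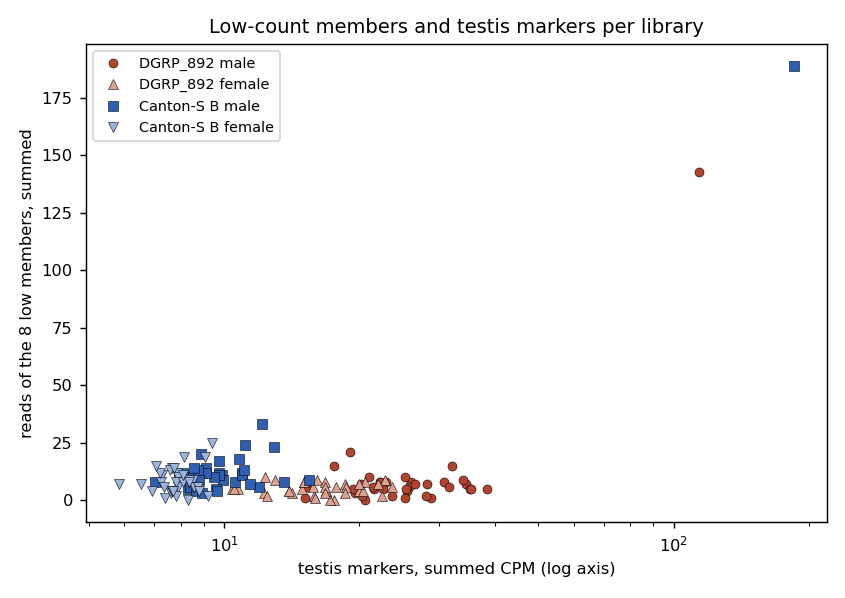
Summed reads of the 8 ribosomal protein genes below the filter in each of the 144 libraries against the summed level of 16 testis marker genes (CPM, log axis), by line and sex. A DGRP_892 male library and a Canton-S B male library, both at CT 22, stand apart with the most of these reads, at 113.9 and 185 CPM of testis markers.

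No ribosomal protein gene passed the test for a 24-h course in either line. A cosine fitted to each line over both sexes gave 0 of 80 genes at an adjusted p under 0.05 in DGRP_892 (edgeR; 0.477% of all genes tested) and 0 of 80 in Canton-S B (6.01%). At an unadjusted p under 0.05 there were 6 genes in DGRP_892 and none in Canton-S B (edgeR). Of the 10894 genes tested, 1264 were at this threshold in DGRP_892 and 1901 in Canton-S B. The smallest adjusted p of the ribosomal protein genes was 0.358 in DGRP_892 and 0.441 in Canton-S B (edgeR). The edgeR test for any difference among the 12 times also gave 0 genes in each line, with 12 in DGRP_892 and 13 in Canton-S B at an unadjusted p under 0.05. For this test, all genes tested were not counted at the unadjusted threshold, and calls among them at the adjusted one are not given. A difference of course between lines was found in 0 genes (0.156% of all genes tested, smallest adjusted p 0.957, edgeR). Between sexes it was found in 0 genes (0.413%, smallest adjusted p 0.231, edgeR). At an unadjusted p under 0.05 there were 0 genes between lines (541 of all genes tested) and 2 between sexes (1447).

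**Figure D5:**
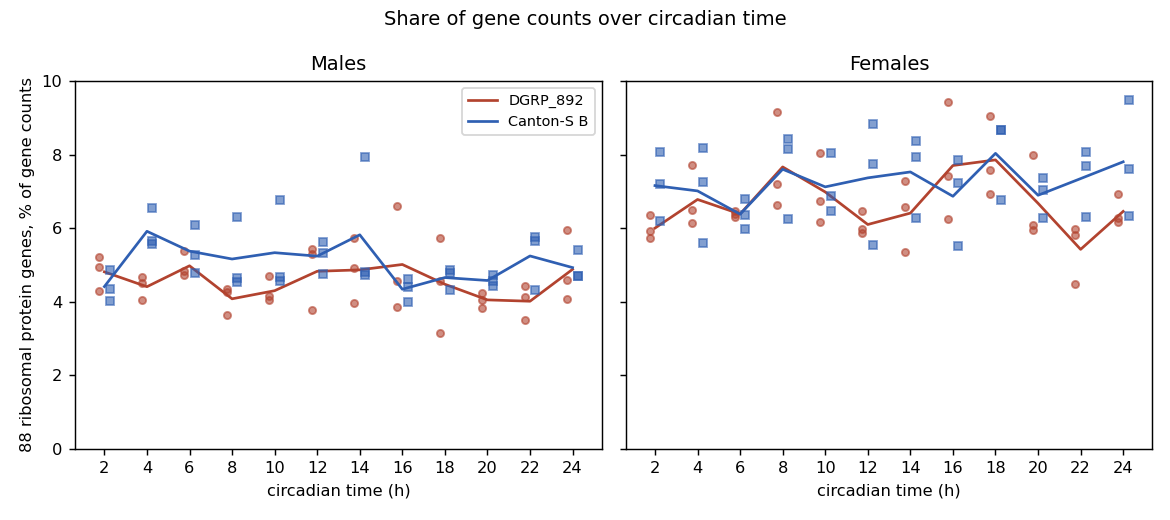
Share of gene counts taken by the 88 ribosomal protein genes at each circadian time in males (left) and females (right), with a point per library and lines through the means of 3 libraries, circles for DGRP_892 and squares for Canton-S B. The female mean lies above the male mean of the same line at every time, and at several times the 3 replicates are spread over as wide a range as the time means.

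Fitted amplitudes, the log2 distance from the mean to the peak, had a median of 0.07 in DGRP_892 and 0.05 in Canton-S B, against 0.06 and 0.06 for all genes tested in these lines. The standard error of a cosine coefficient had a median of 0.05 for these genes in both lines. The 52 genes of the whole table called in DGRP_892 had amplitudes of 0.09 or more, and the 655 called in Canton-S B 0.05 or more, with medians of 1.24 in DGRP_892 and 0.16 in Canton-S B. Amplitudes above these lowest called ones did not pass among the ribosomal protein genes, whose coefficient errors reached 0.19 in DGRP_892 and 0.21 in Canton-S B: RpL38, chosen after its values were seen, had 0.30 in DGRP_892 (adjusted p = 0.459, edgeR). Of the fitted peaks, 59 of DGRP_892 and 40 of Canton-S B fell between CT 10 and CT 16, and these peaks are not independent, since the genes moved together between libraries. Peaks of all genes tested were not counted in this window, so these counts have no background to be set against.

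The smallest adjusted p in DGRP_892 was that of RpS15Ab, with an amplitude of 0.17 and a fitted peak at CT 13.4, followed by RpS3A (0.24) and RpL36A (0.10), then RpS27A (0.11), RpS23 (0.13) and RpS18 (0.23). RpS3A, a small-subunit gene on chromosome 4, had time means from 1083 CPM at CT 22 to 1988 CPM at CT 16 in DGRP_892, and from 1094 CPM at CT 6 to 2262 CPM at CT 8 in Canton-S B. In Canton-S B the lowest and the highest mean were thus neighbouring times. The smallest adjusted p in Canton-S B was that of RpLP2, with an amplitude of 0.19 and a fitted peak at CT 11.7, followed by RpS13 (0.05), RpS15Aa (0.07), RpL21 (0.08), RpS26 (0.13) and RpL23 (0.07). When each replicate number and sex was fitted as its own series, the 6 series of RpLP2 in Canton-S B had peaks from CT 1.07 to CT 16.4.

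The share of counts taken by the 88 genes was highest at CT 18 in females of both lines and at other times in males. In DGRP_892 males the time means ran from 4.01% at CT 22 to 5.01% at CT 16, and single libraries at CT 16 ran from 3.87% to 6.61%. In DGRP_892 females they ran from 5.42% at CT 22 to 7.86% at CT 18. In Canton-S B males the lowest and highest means were 4.34% at CT 16 and 5.91% at CT 4, and in Canton-S B females 6.38% at CT 6 and 8.03% at CT 18. The share differed between library runs by as much: DGRP_892 males averaged 3.76% in run 1 and 5.39% in run 6, and Canton-S B males 4.47% in run 1 and 6.88% in run 6.

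The genes outside the family whose log2 CPM followed the mean of the 80 most closely over the 144 libraries were FBgn0260441 (Pearson r = 0.944), Tctp (0.942), Nap1 (0.923), eEF1alpha1 (0.916), Fib (0.914) and eIF2alpha (0.913). The annotation used gives no symbol for the first of these. Tctp is the translationally controlled tumour protein, Nap1 a histone chaperone, Fib the methyltransferase fibrillarin of the nucleolus and eIF2alpha a subunit of the factor that brings initiator tRNA to the ribosome. After group means were subtracted, the correlations were 0.869, 0.862, 0.795, 0.818, 0.736 and 0.816 in the same order. All 6 were lower in males (edgeR), with log2 fold changes from -1.34 for Fib to -0.35 for Tctp. These correlations describe the 144 libraries, which share depth and library runs with the genes compared.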

How the data were processed

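Poly(A)-selected stranded libraries of fly heads were sequenced, and the authors deposited a table of raw read counts per gene, which is the table tested here. Per the submitters' processing notes the tools included FastQC 0.11.5, STAR 2.5.3a and featureCounts 1.5.2, on FlyBase release 6. No source used here states the strand setting of the counting or the treatment of multi-mapping reads. A second table holds TMM-normalized values corrected for batch by the authors, a deposited score that can fall below 0; it served as an alternative only, for which limma-trend was fitted to log2(value + 20) after negative values had been raised to 0. No source used here states the batch method, and 1 empty column was not used. Gene counts per library were 11.7 M to 37.3 M reads; intervals and floors from counts would cover counting error only.

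Symbols, positions and exon overlaps came from the Ensembl release 115 annotation. The filter was filterByExpr of edgeR 4.0.16 with a count minimum of 10 and a total minimum of 15; it kept 10894 genes, which hold 99.975% of gene counts. Spike-in rows took 0.387% of all counts and entered no library size. A quasi-likelihood model with robust dispersion was fitted to 48 group means after TMM scaling, and p-values were adjusted over 10894 genes with the Benjamini-Hochberg method. Standard errors were derived from the fold change and the F statistic. The daily course was a cosine of 24 h for each line and sex. The procedure was checked on simulated counts. CPM were scaled by TMM, and values per kb used the summed exon length.

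Replicates are the biological replicates of the labels, each a pool of heads. The numbers 1 to 3 are shared across groups; the fit without a replicate block was the main one. The alternatives were DESeq2 1.42.0, RLE scaling, spike-in scaling, no filter, the authors' batch-corrected table with limma 3.58.1, each replicate left out, the block, library-number runs as a covariate, deeper or shallower libraries alone and a test for any difference among the 12 times. A further 3 were chosen after seeing the data: leaving out run 6, the 3 libraries with gonad markers, and the 10 males with yolk gene counts.

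Members and lists were chosen with earlier results of these data known. Named were the 6 largest and 4 smallest sex differences, all line calls, up to 6 genes for the interaction and each time test, all paralogues, all genes below the filter, the 6 highest and 3 lowest levels per kb, the 6 most similar other genes and up to 3 genes of each other list. Any other name was chosen after its values were seen. Promoter motifs were not analysed here, and single-gene results of a few members are not reported here, in text or figures. R 4.3.3, Python 3.11.15, pandas 2.3.3 and matplotlib 3.10.9 were used.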

Additional observations from a re-analysis of the deposited data

Results flagged for a closer look

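The sex difference differed between the lines, by the interaction term of the edgeR model, for 10 ribosomal protein genes, of which 9 are named. These are 12.5% of the tested members, close to the 12.7% called among all genes tested. The values are the log2 sex difference (male over female) in DGRP_892 minus that in Canton-S B. RpL34b had -0.41, RpL18 -0.33, RpL6 -0.30, RpL7A -0.29, RpL24 -0.26, RpL19 -0.21, RpL12 -0.20 and RpL40 -0.17, and RpS15Ab had 0.28. The adjusted p ran from 1.2e-04 for RpL6 to 0.049 for RpS15Ab. Of 15 alternatives, RpL6, RpL7A, RpL18 and RpL34b passed the threshold in 13 each, and RpS15Ab in 3. No ribosomal protein gene passed in the deeper libraries alone or under spike-in scaling.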

How the results depend on the processing

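The sex difference kept its direction under every alternative for the median of the ribosomal protein genes (-0.73 to -0.51 on the log2 scale), with 77 to 82 genes called; 82 were called without library run 6, where the filter kept further genes and 79 were lower in males. RpL24-like turned to 0.085 (adjusted p = 0.425, edgeR) under spike-in scaling; the cause was not tested. The 19 line calls became 3 under spike-in scaling, 12 without replicate 1, 30 with runs as a covariate and 10 in the deeper libraries. The 10 line-by-sex calls became 35 in the authors' batch-corrected values (limma), 32 with runs as a covariate, 6 without replicate 3, 6 in the shallower libraries, 4 without run 6, and 0 under spike-in scaling and in the deeper libraries (edgeR; 1 and 4 at an unadjusted p under 0.05). Fewer samples entered the fits that left libraries out, and otherwise the cause was not tested. Without the 10 male libraries with over 2000 CPM of yolk genes, 17 genes had an unadjusted p under 0.05 for line by sex (edgeR, 26 in the main fit). For the 24-h course in DGRP_892 there were 13 (6 in the main fit, where 1264 of the 10894 genes tested were). Calls among all genes tested are not given for the alternatives, so these changes cannot be called particular to ribosomal protein genes.

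Leaving out a replicate at a time gave 78 to 80 sex calls, 12 to 25 line calls and 6 to 8 line-by-sex calls, medians of -0.72 to -0.69 for sex and of -0.06 to 0.02 for line, and 0 calls for each of the 4 time tests. With the replicate number as a block there were 79 sex, 18 line and 12 line-by-sex calls. Deviations of same-numbered libraries had a median correlation of 0.0811 between sexes and 0.0595 between lines, with 31 and 29 of 72 pairs over 0.1. For libraries of different numbers the medians were -0.0417 between sexes and -0.0274 between lines, with 26 and 29 of 144 pairs over 0.1. Whether libraries of the same number share an effect of their repeat was not tested. Of single-gene values under the alternatives, 86 for line, 39 for line by sex and 2 for sex lost a call (beside RpL24-like, which reversed and lost its call under spike-in scaling), and 21 for line, 21 for line by sex and 1 for sex gained one. At this depth the 8 genes below the filter could not be compared.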

Other observations

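Some genes that act in the assembly of ribosomes were called for a daily course in Canton-S B. Of 22 tested ribosome assembly genes, 12 passed the threshold there (edgeR, adjusted over 10894 genes; 6.01% of all genes tested did), with log2 amplitudes of 0.09 to 0.22 and fitted peaks from CT 7.42 to CT 8.99. Of 8 tested RNA polymerase I genes, 3 passed, with amplitudes of 0.13 to 0.17 and peaks from CT 7.23 to CT 9.01. The 3 genes of each list with the smallest adjusted p are nop5, Nop60B and Nopp140 and Polr1E, Polr1A and Polr1B, and in DGRP_892 their adjusted p ran from 0.215 to 0.559 (edgeR). In DGRP_892 the median amplitude was 0.06 for the assembly list and 0.08 for the polymerase list, and in Canton-S B it was 0.12 for each.

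The gene nop5, a core protein of the snoRNA particles that guide methylation of ribosomal RNA, had an amplitude of 0.09 in DGRP_892 (adjusted p = 0.372, edgeR) and of 0.22 in Canton-S B, peaking at CT 7.98 (adjusted p = 3.9e-07, edgeR). Nop60B, the pseudouridine synthase of the other class of these particles, had an amplitude of 0.20 in Canton-S B, Nopp140, a nucleolar phosphoprotein, 0.15, and Polr1E, an RNA polymerase I subunit, 0.17. The difference of the course between lines did not pass the threshold for these 6 genes (adjusted p from 0.283 to 0.919, edgeR), so these calls do not show that the lines differ.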
